A study of Mus musculus with 18 samples.

Results

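RNA sequencing was used to compare MC38 cells after 24 h of 1 µM doxycycline with untreated MC38 cells, both with the tumour suppressor gene Apc intact. The comparison was defined by the sample titles and holds 6 of the 18 libraries of the series, 3 at 24 h and 3 untreated. MC38 is a line derived from a C57BL6 mouse colon adenocarcinoma. The labels' protocol uses doxycycline to switch on a short hairpin RNA against Tdo2 in MC38 lines grown in serum approved for tetracycline-controlled systems, and the series asks what loss of TDO2 does to cells with and without APC. The 24 h titles name the inducible hairpin and the untreated titles do not, while the protocol speaks of hairpin cells with and without doxycycline, so the labels leave unclear if the hairpin was also present in untreated cells. No group received doxycycline without the hairpin, so the effects of the drug and of the hairpin cannot be told apart, and neither can a difference between a parental and a hairpin line if the untreated cells lacked it. The other groups of the series, used beside this comparison, are APC-intact cells at 48 h and APC-deleted cells at 24 h, at 48 h and untreated, with 3 libraries each. Each group is labelled as biological triplicates, and whether separate cultures were used is not stated, so a p-value here is set against the spread among these libraries, which may be technical.

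Tryptophan 2,3-dioxygenase, the product of Tdo2, opens the ring of tryptophan and so starts the kynurenine pathway, whose products can activate the aryl hydrocarbon receptor and can feed NAD synthesis. A hairpin transcript is cut by Dicer into a small RNA that guides Argonaute proteins to its target. Interferons act through JAK kinases and transcription factors such as STAT2 and IRF9, which switch on antiviral genes through a promoter element called the interferon-stimulated response element, and many cells keep these genes on at a low level without added interferon. Doxycycline is an antibiotic of the tetracycline class, which can also inhibit protein synthesis in mitochondria.

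The files gave whole-number counts per gene, with 71970499, 80174271 and 102229211 counts in the 24 h libraries, against 92387854, 93120946 and 96007240 in the untreated libraries. Counting noise alone did not account for the differences within any pair of replicates, since chi-square per degree of freedom was 29.0 to 76.9 between the 24 h libraries and 10.4 to 27.9 between the untreated ones. In a principal component analysis of the 6 libraries, the 24 h libraries had scores of 33.98, 3.81 and 14.4 on the first component (29.7% of the variance), against −22.8, −20.95 and −8.40 in the untreated libraries. The 24 h replicate 2 stood apart from the other 5 libraries on the second component, with a score of −38.0. Entries that name no gene took 25.2% ± 0.315 of the 24 h libraries and 24.2% ± 0.419 of the untreated libraries (SD, n = 3 each), and these did not overlap (exact two-sided permutation p = 0.1, the smallest that 3 against 3 allows). Levels are in CPM, gene counts scaled to the library total with edgeR's TMM factors. Changes are log2 fold changes of 24 h over untreated ± SE from edgeR's quasi-likelihood test, fitted over all 18 libraries.

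The labelled colon carcinoma line was checked against its defining markers. The epithelial genes Epcam and Krt18 had 0 or 1 counts in each of the 6 libraries, and the intestinal factor Cdx2 and the tight junction gene Cldn1 had none. Of 22 epithelial genes 13 passed the filter on low counts. The junction gene Tjp1, which many cell types express, had 21252 to 37954 counts at 24 h and 26797 to 33230 in untreated cells. The other 12 stayed at or below 201 counts in a library, as with Cdh1, which encodes E-cadherin, at 45 to 122 counts at 24 h and 88 to 106 in untreated cells, and the keratin gene Krt8 at 65 to 127 counts at 24 h and 144 to 201 in untreated cells. Several genes typical of fibroblasts were abundant, with 44307 to 59032 counts of Col1a1 at 24 h and 55823 to 66291 in untreated cells. Other fibroblast markers were not. Thy1 and Pdpn had no counts, and Lum, Fap, Acta2 and Postn had at most 40 counts in a library. The leukocyte gene Ptprc had 0 to 4 counts in each library and the T cell gene Cd3e 0 or 1. Cd68, the most abundant haematopoietic marker, had 800 to 1089 counts at 24 h and 1337 to 1517 in untreated cells. The endothelial marker Cdh5 had 331 to 521 counts at 24 h and 412 to 475 in untreated cells.

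Tdo2, the target of the hairpin (gene ENSMUSG00000028011, on the minus strand of mm10 chromosome 3, 81957090 to 81975750), had few counts in both groups. It had 6, 16 and 27 counts in the 24 h libraries, against 26, 22 and 16 counts in the untreated libraries. The 2 groups overlapped, and the lowest and the highest library were both 24 h libraries. The fitted fold was 0.810 (95% interval 0.410 to 1.599, adjusted p = 0.774 by edgeR), and the log2 estimate was −0.30 ± 0.469, turning to 0.031 without 24 h replicate 1. A difference in Tdo2 was not detectable at this depth. Whole-gene counts of a transcript this rare give no check of the knockdown.

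The other genes of tryptophan breakdown were rare as well. Of 13 kynurenine genes 6 passed the filter on low counts, and 0 of the 6 passed the test. Ido2, a second enzyme that opens the ring of tryptophan, had 18, 19 and 25 counts at 24 h, against 18, 33 and 19 counts in untreated cells. Kynu, the kynureninase gene, had no counts in any of the 6 libraries, and Kmo, Haao and Ido1 had at most 5 counts in a library. Il4i1, an amino acid oxidase that can also act on tryptophan, had 89, 69 and 103 counts at 24 h, against 95, 98 and 120 counts in untreated cells, and did not pass the test (−0.12 ± 0.240, adjusted p = 0.829).

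Between 24 h and untreated cells 846 of 15006 genes tested differed (5.64% at an adjusted p under 0.05 by edgeR), 208 higher (1.39%) and 638 lower (4.25%). The calls were mostly small. Of the 846, 658 had changed by less than 0.5 on the log2 scale, and 27 rose and 30 fell by 1 or more. Most of these 57 were rare transcripts, since 20 of the 27 rises and 18 of the 30 falls were under 1 CPM in the group where they were higher. In 832 of the 846 the 3 libraries of each group did not overlap. The calls rest on these same libraries, so that separation is no further support for them. Over all genes tested the 24 h libraries lay wholly below the untreated ones in 14.0% and wholly above in 8.56%. The median over all genes tested was −0.00. RNA from bulk cultures does not separate a change in the number of cells of a kind from a change in RNA per cell.

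**Figure D1:**
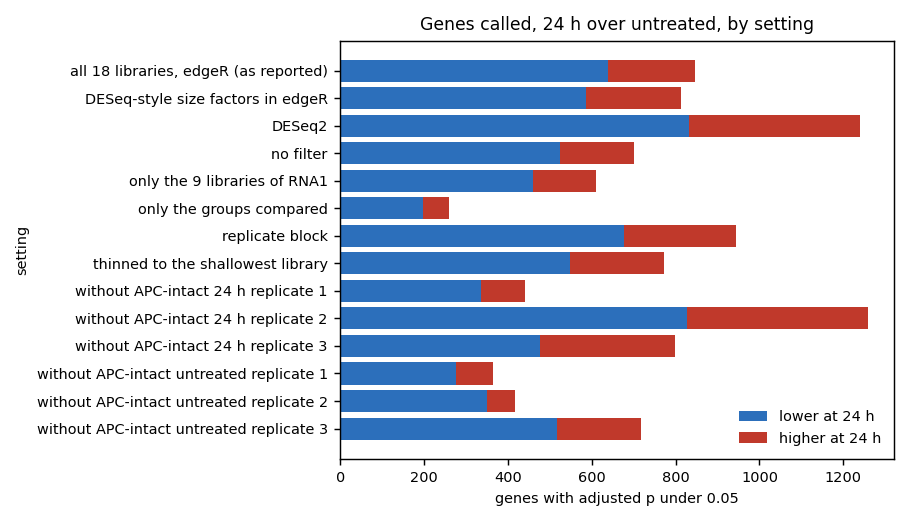
Genes with an adjusted p under 0.05 between 24 h doxycycline and untreated APC-intact cells (horizontal axis), for the fit over all 18 libraries and for each of the 13 alternatives, split into genes lower at 24 h (blue) and higher at 24 h (red). In every setting more genes were lower than higher, and the count ran from 258 with only the groups compared to 1259 without 24 h replicate 2.

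Without untreated replicate 1 the count of 846 was 364. It was 417 without untreated replicate 2, 441 without 24 h replicate 1 and 258 with only the 6 libraries in the fit. Of the 846 calls, 211 were made in all 13 alternatives, 36 of them rises and 175 falls, and none of the 846 turned in sign in any of them. The genes described below kept their calls in every alternative unless a lost call is stated. More genes were lower than higher in all 13 alternatives, and the largest count was 1259, without 24 h replicate 2.

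Among called genes of at least 5 CPM, Gpr56 and Cdsn had the largest rises. The largest rises and falls were named only where the 2 groups did not overlap, so their separation is a condition of the choice. Gpr56 (ENSMUSG00000031785, mm10 chromosome 8 from 94977109 to 95014208, plus strand), an adhesion receptor that binds proteins of the extracellular matrix, had 7.74, 7.70 and 7.85 CPM in the 24 h libraries, against 2.72, 2.90 and 2.52 CPM in the untreated libraries. All 3 treated libraries were close together and far above all untreated ones. Its log2 fold change was 1.52 ± 0.0936 (adjusted p = 1.62e-08 by edgeR). Cdsn (ENSMUSG00000039518, mm10 chromosome 17 from 35552128 to 35557180, plus strand), which encodes corneodesmosin, an adhesion protein of the cornified skin layer, had 5.68, 5.72 and 4.79 CPM in the 24 h libraries, against 1.85, 2.24 and 2.03 CPM in the untreated libraries. Again the groups did not overlap, although 24 h replicate 3 was the lowest of the treated libraries, and the change was 1.40 ± 0.121 (adjusted p = 1.43e-06 by edgeR). Of 10 tested genes of the cornified envelope and desmosomes 1 rose, Cdsn, and 0 fell. The shares over all genes tested were 1.39% higher and 4.25% lower.

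Car6, a secreted carbonic anhydrase known from saliva, had 40.6, 42.5 and 39.0 CPM in the 24 h libraries, against 23.3, 24.97 and 22.3 CPM in the untreated libraries (0.79 ± 0.0714). Every treated library was above every untreated one. Avil, which encodes the actin-severing protein advillin, had 10.3, 10.8 and 9.04 CPM in the 24 h libraries, against 6.38, 5.74 and 5.78 CPM in the untreated libraries (0.75 ± 0.0946). Avil overlaps Tsfm on the opposite strand, whose change was −0.05 and did not pass the test, and whether the counting used strand is not given in the sources used here. Ccar1, a coactivator of transcription, had 159, 161 and 184 CPM in the 24 h libraries, against 108, 113 and 115 CPM in the untreated libraries (0.59 ± 0.0676). The 24 h replicate 3 was the highest library, and the groups were far apart.

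Hdac4, a histone deacetylase that represses transcription in muscle and cartilage, had 17.2, 19.0 and 15.4 CPM in the 24 h libraries, against 11.2, 9.93 and 12.1 CPM in the untreated libraries (0.63 ± 0.0969). These counts are of an annotated entry that spans only mm10 chromosome 1 from 91928785 to 91931176, on the minus strand. Cox6a2, the heart and muscle form of a cytochrome c oxidase subunit, had 9.74, 9.61 and 7.63 CPM in the 24 h libraries, against 6.63, 5.75 and 5.47 CPM in the untreated libraries (0.59 ± 0.111). Timp1, an inhibitor of matrix metalloproteinases, had 78.0, 83.6 and 77.2 CPM in the 24 h libraries, against 54.9, 57.1 and 54.2 CPM in the untreated libraries (0.52 ± 0.0566). None of these 3 genes had overlapping groups. Among matrix metalloproteinases and their inhibitors 3 of 13 rose and 2 fell, beside 1.39% higher and 4.25% lower over all genes tested. Without untreated replicate 1 or with only the 6 libraries 3 calls were left. Timp2, a second inhibitor, rose by 0.26 ± 0.0464, and the collagenase gene Mmp13 fell (−0.80 ± 0.138). Timp2 overlaps BC100451 on the same strand, which averaged 24.5 CPM at 24 h and 16.5 CPM untreated. That entry was called higher too (0.58, adjusted p = 8.43e-05 by edgeR). The rises of Zfhx2, Syne1, Dmxl2, Rbm4b, Tmem238 and Ahnak2, between 0.50 and 0.68, lost their calls in 3 to 6 of the 13 alternatives, always including those without untreated replicate 1 and without untreated replicate 2 and in some also those without another of the 6 libraries. Their highest adjusted p over the alternatives lay between 0.0647 and 0.14 by edgeR.

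**Figure D2:**
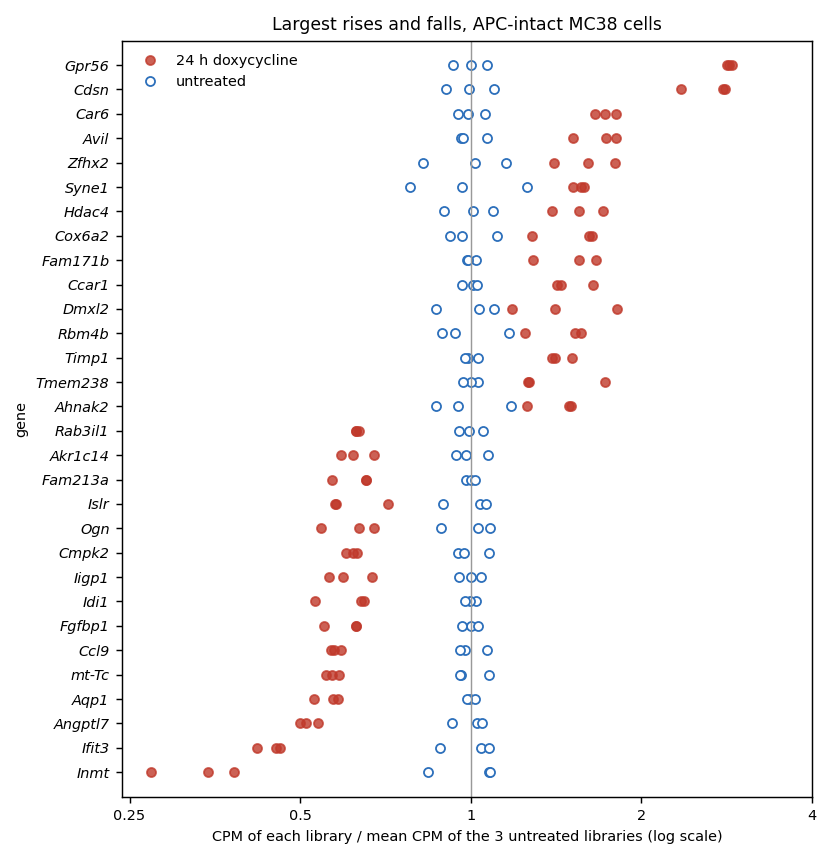
CPM of each library divided by the mean of the 3 untreated libraries (horizontal axis, log scale) for the 15 largest rises and 15 largest falls among called genes of at least 5 CPM, with 24 h libraries as filled red points and untreated libraries as open blue points. The 30 genes were chosen among those whose 2 groups do not overlap, so their separation is a condition of the choice. Gpr56, Cdsn, Ifit3 and Inmt lie farthest from 1.

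Among called genes of at least 5 CPM the largest fall was in Inmt (ENSMUSG00000003477, mm10 chromosome 6 from 55170626 to 55175043, minus strand), an enzyme that methylates indole amines such as tryptamine, which is made from tryptophan. Inmt had 2.94, 3.27 and 2.33 CPM in the 24 h libraries, against 9.23, 9.23 and 7.18 CPM in the untreated libraries. No treated library came near the lowest untreated one, and the change was −1.59 ± 0.140 (adjusted p = 1.43e-06 by edgeR). Angptl7, a secreted protein of the angiopoietin-like family, had 45.9, 48.1 and 44.7 CPM in the 24 h libraries, against 92.0, 93.7 and 83.0 CPM in the untreated libraries (−0.95 ± 0.0719). Angptl7 overlaps Mtor on the opposite strand, and Mtor changed by 0.02 and did not pass the test. Aqp1, the water channel of red cells and endothelium, had 27.8, 25.7 and 28.4 CPM in the 24 h libraries, against 48.6, 49.5 and 47.9 CPM in the untreated libraries (−0.83 ± 0.0567). Both genes had tight, separate groups.

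Ogn, which encodes the small proteoglycan osteoglycin, had 121, 98.0 and 114 CPM in the 24 h libraries, against 185, 195 and 159 CPM in the untreated libraries (−0.69 ± 0.103). Fgfbp1, a carrier of fibroblast growth factors, had 7.83, 8.89 and 8.92 CPM in the 24 h libraries, against 14.2, 14.6 and 13.7 CPM in the untreated libraries (−0.73 ± 0.0801). Rab3il1, an exchange factor for Rab GTPases, had 34.99, 34.5 and 34.6 CPM in the 24 h libraries, against 54.7, 57.9 and 52.4 CPM in the untreated libraries (−0.66 ± 0.0623). In each the highest treated library was below the lowest untreated library. Akr1c14, a hydroxysteroid dehydrogenase, fell (−0.67 ± 0.0944), and so did Islr, a secreted leucine-rich repeat protein (−0.68 ± 0.102).

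Of the gene lists examined, those of interferon-induced genes held the most falls. Of 80 tested members of 6 lists of such genes, 48 fell and 1 rose, at a median of −0.32, beside 4.25% lower and 1.39% higher over all genes tested. In 61 of the 80 all 24 h libraries were below all untreated libraries, beside 14.0% of all genes tested. The number of falls was 34 without untreated replicate 2, the lowest of the 13 alternatives, and 35 without untreated replicate 1 or with only the 6 libraries in the fit.

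Antiviral effectors fell in 23 of 32 and rose in 0, at a median of −0.35. Ifit3 (ENSMUSG00000074896, mm10 chromosome 19 from 34583531 to 34588731, plus strand), one of the proteins that bind foreign RNA ends and block its translation, had 88.8, 96.1 and 97.7 CPM in the 24 h libraries, against 221, 228 and 187 CPM in the untreated libraries. Every treated library was far below every untreated one, and the change was −1.17 ± 0.122 (adjusted p = 3.37e-05 by edgeR). Reads of Ifit3 can be shared with its near-copy Ifit3b. Its neighbour Ifit1 had 57.6, 54.0 and 57.7 CPM in the 24 h libraries, against 77.5, 83.5 and 74.8 CPM in the untreated libraries (−0.48 ± 0.0673). Ifi27l2a, an interferon-induced membrane protein, had 2.15, 1.88 and 1.93 CPM in the 24 h libraries, against 4.94, 5.41 and 4.08 CPM in the untreated libraries (−1.28 ± 0.148). Cmpk2, a mitochondrial nucleotide kinase, had 16.9, 16.1 and 16.6 CPM in the 24 h libraries, against 25.3, 28.8 and 26.0 CPM in the untreated libraries (−0.69 ± 0.0764). All 3 were lower in each treated library than in any untreated one. Oasl2, a member of the oligoadenylate synthetase family, fell (−0.44 ± 0.0704). The effector count was 15 without untreated replicate 1.

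Of 6 genes of the modifier ISG15 and its conjugation 3 fell and 0 rose. Isg15 itself had 91.9, 105 and 93.9 CPM in the 24 h libraries, against 139.9, 143 and 140.0 CPM in the untreated libraries (−0.54 ± 0.0615, adjusted p = 2.96e-05 by edgeR). Usp18, the protease that removes ISG15 and restrains the interferon receptor, had 67.1, 64.7 and 63.8 CPM in the 24 h libraries, against 91.6, 99.2 and 85.4 CPM in the untreated libraries (−0.50 ± 0.0670). Both genes were separate between the groups, and the conjugating enzyme gene Ube2l6 fell (−0.32 ± 0.0568).

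The GTPases that interferon induces against intracellular pathogens fell in 11 of 13 and rose in 0, at a median of −0.47. Iigp1 had 14.3, 13.6 and 16.1 CPM in the 24 h libraries, against 24.1, 25.2 and 23.003 CPM in the untreated libraries (−0.71 ± 0.105). Irgm1 had 73.8, 67.2 and 82.1 CPM in the 24 h libraries, against 102, 104 and 96.4 CPM in the untreated libraries (−0.44 ± 0.0647). The neighbours Irgm2 and Igtp, whose annotated places overlap on the same strand, changed by −0.56 ± 0.0642 and −0.43 ± 0.0611, and Tgtp2, a near-copy of Tgtp1, by −0.61 ± 0.0894, all called as falls. The groups of these 5 genes did not overlap.

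Of 11 transcription factors of the response 5 fell and 1 rose. Irf7, which amplifies the response, had 54.2, 55.8 and 54.5 CPM in the 24 h libraries, against 77.9, 77.4 and 75.3 CPM in the untreated libraries (−0.49 ± 0.0721, adjusted p = 0.000312 by edgeR), and its treated libraries were all below its untreated ones. Irf7 overlaps Phrf1 on the opposite strand, which changed by −0.01 and did not pass the test. Stat2 had 98.8, 89.1 and 94.1 CPM in the 24 h libraries, against 122, 120.5 and 121 CPM in the untreated libraries (−0.37 ± 0.0614), also without overlap, and Irf1 fell too (−0.32 ± 0.0615). The 1 gene that rose, named after its values were seen, was the haematopoietic factor gene Irf8 (0.31 ± 0.0865), whose call was lost in 8 alternatives (adjusted p up to 0.21 by edgeR) and whose groups overlapped (8.21, 8.29 and 6.52 CPM in the 24 h libraries, against 6.20, 5.81 and 6.56 CPM in the untreated libraries).

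Among 12 nucleic acid sensors and adaptors 3 fell, Zbp1 (−0.48 ± 0.0773), the RIG-I-like receptor gene Dhx58 (−0.45 ± 0.0695) and Mnda, of the family of the DNA sensor AIM2 (−0.31 ± 0.0711). Mnda lost its call without untreated replicate 2 and with only the 6 libraries (adjusted p up to 0.109 by edgeR), and DESeq2 called 5 of the 12. Mnda overlaps Mndal on the same strand, which averaged 30.9 CPM at 24 h and 33.2 CPM untreated (−0.10). Mndal did not pass the test. The interferon-induced PARP genes fell in 3 of 6, with Parp9, which overlaps its partner gene Dtx3l, at −0.31 ± 0.0651, and in 1 of 6 without untreated replicate 2 or with only the 6 libraries. Of 11 genes of ligand, receptors and signal transduction 1 fell and 0 rose, at a median of 0.06. This was Socs3, a brake on cytokine signalling (−0.26 ± 0.0572), whose call was lost without untreated replicate 1, without 24 h replicate 1, without 24 h replicate 3 and with only the 6 libraries (adjusted p up to 0.122 by edgeR). Of 19 interferon genes in the files Ifnb1 alone passed the filter on low counts, with 2, 8 and 15 counts at 24 h, against 1, 17 and 9 counts in untreated cells, and no interferon gene had over 17 counts in a library.

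**Figure D3:**
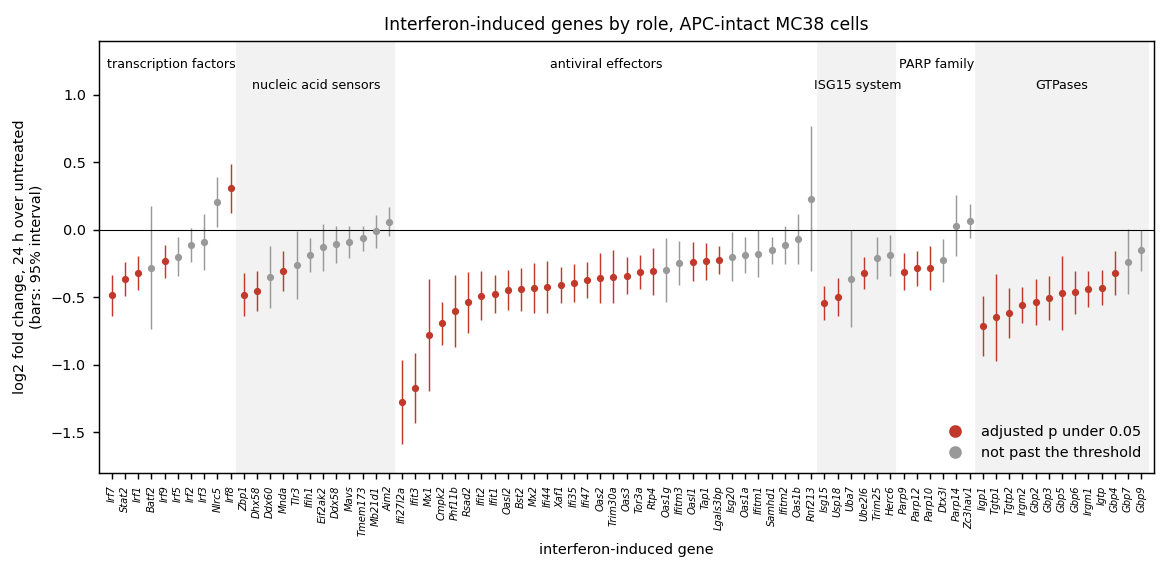
Log2 fold change of 24 h over untreated in APC-intact cells (vertical axis, points) with 95% intervals (bars) for 79 of the 80 tested interferon-induced genes, grouped by role and ordered within each role, red where the adjusted p was under 0.05. The antiviral effectors and GTPases lie mostly below 0, led by Ifi27l2a and Ifit3, and Irf8 is the single called gene above 0.

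The promoters of several of these genes carry the core of the interferon-stimulated response element, and those of 5 genes that fell are shown for that reason. The 180 bases before the RefSeq start (GRCm38.p6, read on the strand of the gene, 5′ to 3′) are printed below, with capitals for each match to GAAA, any 2 bases and GAAA on either strand. The 3 matches in Isg15 overlap.
Ifit3 (chr19:34583349-34583528, plus strand): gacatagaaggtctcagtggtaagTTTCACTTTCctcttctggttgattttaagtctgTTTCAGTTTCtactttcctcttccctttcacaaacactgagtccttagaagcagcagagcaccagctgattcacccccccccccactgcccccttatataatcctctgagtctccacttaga
Ifit1 (chr19:34640709-34640888, plus strand): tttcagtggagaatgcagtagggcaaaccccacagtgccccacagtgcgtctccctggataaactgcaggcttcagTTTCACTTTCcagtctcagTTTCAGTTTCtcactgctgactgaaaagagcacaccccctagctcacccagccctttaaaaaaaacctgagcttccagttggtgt
Isg15 (chr4:156200819-156200998, minus strand): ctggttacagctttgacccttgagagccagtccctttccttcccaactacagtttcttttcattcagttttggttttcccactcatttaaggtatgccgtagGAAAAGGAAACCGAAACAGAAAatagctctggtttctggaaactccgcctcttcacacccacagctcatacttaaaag
Igtp (chr11:58199376-58199555, plus strand): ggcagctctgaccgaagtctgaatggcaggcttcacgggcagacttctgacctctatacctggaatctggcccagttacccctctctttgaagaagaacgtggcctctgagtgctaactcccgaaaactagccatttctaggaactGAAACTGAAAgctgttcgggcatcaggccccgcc
Irgm2 (chr11:58214797-58214976, plus strand): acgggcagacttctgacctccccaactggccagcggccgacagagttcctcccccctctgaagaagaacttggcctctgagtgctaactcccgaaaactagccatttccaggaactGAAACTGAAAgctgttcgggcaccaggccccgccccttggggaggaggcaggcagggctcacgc

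In Ifit3 and Ifit1 both matches read on the opposite strand, the nearest ending 112 and 75 bases before the start, and in Isg15, Igtp and Irgm2 the matches read on the strand of the gene, the nearest ending 56, 24 and 54 bases before it. Over promoters of 300 bases (250 before the start and 50 after), 17 of the 32 interferon-induced genes that fell and had an entry held a match (53.1%), and 10 of the 25 with an entry that did not fall (40%). The share was 9.91% of the 464 matched genes among all that fell, 4.14% of 145 among all that rose, 3.80% of the 9877 matched genes tested and 3.44% of 32851 promoters in the table. These matches describe letters and not bound sites. The NRF2 motif, TGAC, any 3 bases and GC, was held by 3 of 8 matched genes that fell in the NRF2 lists and by 8 of 19 that did not, beside 17.1% of the matched genes tested.

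MHC class I and antigen processing genes fell in 8 of 20 and rose in 0, at a median of −0.21, beside 4.25% lower over all genes tested. Subunits of the immunoproteasome were among the falls. Psmb10, an immunoproteasome subunit, had 37.5, 41.7 and 36.2 CPM in the 24 h libraries, against 54.4, 58.8 and 55.1 CPM in the untreated libraries (−0.55 ± 0.0690). H2-T23, a non-classical class I gene, had 107, 121 and 101.1 CPM in the 24 h libraries, against 153, 154 and 143 CPM in the untreated libraries (−0.45 ± 0.0733), and its reads can be shared among H2 genes. The treated libraries of both were below the untreated ones. The classical genes H2-K1 (−0.05) and H2-D1 (−0.03) and B2m (0.13), which encodes their light chain, did not pass the test. The count of falls was 3 without untreated replicate 1, 4 without untreated replicate 2, 3 without 24 h replicate 1, 4 without 24 h replicate 3 and 3 with only the 6 libraries.

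Chemokines fell in 6 of 17 and rose in 0, beside 4.25% lower over all genes tested. Ccl9, a ligand that draws myeloid cells, had 7.55, 7.63 and 7.86 CPM in the 24 h libraries, against 14.2, 13.0 and 12.7 CPM in the untreated libraries (−0.79 ± 0.0721, adjusted p = 1.82e-06 by edgeR), with separate groups. Cxcl10, an interferon-induced chemokine that draws activated T cells, had 231, 209.6 and 205 CPM in the 24 h libraries, against 284, 296 and 281 CPM in the untreated libraries (−0.42 ± 0.0893), also separate, and it lost its call only with the 9 libraries of its run (adjusted p = 0.0548). The CC chemokine falls numbered 3 of 9, and 1 without untreated replicate 1 or 2. The CXC falls numbered 3 of 8, and 1 without untreated replicate 1, 24 h replicate 1 or 24 h replicate 3. With only the 6 libraries both counts were 1.

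Some genes of lipid synthesis fell. Of 10 mevalonate genes 5 fell and of 10 genes of the later sterol steps 0 fell, with 0 rises in both and medians of −0.23 and −0.11. Over all genes tested 4.25% fell. Fdps, which makes farnesyl diphosphate, had 58.6, 70.9 and 62.6 CPM in the 24 h libraries, against 85.6, 89.2 and 89.0 CPM in the untreated libraries (−0.46 ± 0.0670, adjusted p = 0.000279 by edgeR), with no overlap. Idi1, which makes the isomer that Fdps uses, had 3.55, 4.27 and 4.32 CPM in the 24 h libraries, against 6.82, 6.67 and 6.53 CPM in the untreated libraries (−0.72 ± 0.159), and its call was lost without 24 h replicate 1 (adjusted p = 0.069). The mevalonate count was 1 without 24 h replicate 1, 2 without untreated replicate 1, untreated replicate 2 or 24 h replicate 3, 3 without untreated replicate 3 and 2 with only the 6 libraries.

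Sterol sensing and transport genes moved both ways, 1 of 15 higher and 2 lower. The shares over all genes tested were 1.39% higher and 4.25% lower. Insig1, which holds the sterol sensor in the endoplasmic reticulum, had 55.5, 55.8 and 55.0 CPM in the 24 h libraries, against 66.9, 68.9 and 65.4 CPM in the untreated libraries (−0.28 ± 0.0599). Npc1, which exports cholesterol from lysosomes, had 147, 130.4 and 146 CPM in the 24 h libraries, against 117, 106 and 116 CPM in the untreated libraries (0.32 ± 0.0615). Insig1 was lower and Npc1 higher in every treated library than in any untreated one. Of 16 fatty acid genes 4 fell and 0 rose (2 without untreated replicate 1). The desaturase genes Fads2 (31.5, 34.4 and 33.0 CPM in the 24 h libraries, against 47.0, 47.4 and 47.4 CPM in the untreated libraries; −0.52 ± 0.0548) and Scd2 (565, 549 and 613 CPM in the 24 h libraries, against 776, 735 and 785 CPM in the untreated libraries; −0.41 ± 0.0524) were the firmest, and Fasn, the fatty acid synthase gene, did not pass the test (0.15 ± 0.0821).

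Genes driven by the oxidative stress factor NRF2 fell in 4 of 16 antioxidant genes, with 0 rises, and in 5 of 17 detoxification genes, with 1 rise in Abcc4, an export pump gene named after its values were seen (0.18 ± 0.0494, called in 6 of the 13 alternatives). Nqo1, a quinone reductase that the aryl hydrocarbon receptor also drives, had 65.2, 67.2 and 65.1 CPM in the 24 h libraries, against 97.7, 102 and 96.7 CPM in the untreated libraries (−0.58 ± 0.0511, adjusted p = 1.43e-06 by edgeR). Hmox1, the inducible haem oxygenase, had 89.0, 91.6 and 84.6 CPM in the 24 h libraries, against 109, 111 and 107 CPM in the untreated libraries (−0.30 ± 0.0552). Both had separate groups, while Nfe2l2, which encodes NRF2 itself, changed by 0.01 and did not pass the test. Over all genes tested 4.25% fell and 1.39% rose. Without untreated replicate 1 or 24 h replicate 1 the antioxidant count was 1. The detoxification calls, 6 with the rise, numbered 3 without 24 h replicate 1 and 2 without 24 h replicate 3, untreated replicate 1 or untreated replicate 2. With only the 6 libraries these counts were 0 and 2.

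Of 84 tested members of 4 lists of DNA replication genes 16 fell, 0 rose and 68 did not pass the test, at a median of −0.10. Over all genes tested 4.25% fell. In 38 of the 84 all treated libraries were below all untreated ones, beside 14.0% of all genes tested. Rrm2, the regulated subunit of ribonucleotide reductase, which makes deoxynucleotides, had 174, 178 and 185 CPM in the 24 h libraries, against 220.2, 233 and 229 CPM in the untreated libraries (−0.35 ± 0.0507, adjusted p = 0.000273 by edgeR). Of the 24 licensing and helicase genes 6 fell, among them the helicase subunits Mcm6 (−0.21 ± 0.0419) and Mcm7 (−0.23 ± 0.0445). The replicative polymerase and clamp genes fell in 4 of 23, with the primase subunit Prim2 at −0.27 ± 0.0523. With only the 6 libraries in the fit Mcm6, Mcm7 and Prim2 lost their calls (adjusted p = 0.104, 0.0901 and 0.085), and 1 of the 84 genes was called. Leaving out 24 h replicate 1, untreated replicate 1 or untreated replicate 2 left 6 calls each, and leaving out 24 h replicate 3 or untreated replicate 3 left 9 each.

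Of 26 genes of G2 and M phase 7 fell and 0 rose, at a median of −0.11, beside 4.25% lower over all genes tested. Cdc20, an activator of the anaphase-promoting complex, had 93.1, 98.0 and 88.9 CPM in the 24 h libraries, against 114, 118 and 111 CPM in the untreated libraries (−0.29 ± 0.0568), with separate groups. The count was 2 without untreated replicate 1, 3 without untreated replicate 2 or 24 h replicate 1, 4 without 24 h replicate 3 and 1 with only the 6 libraries. Replication-dependent histones, whose RNA is made in S phase, gave 0 rises and 0 falls among 21 tested. Ccnd1, the cyclin that drives entry into the cycle, had 475, 451 and 483 CPM in the 24 h libraries, against 556, 545 and 542 CPM in the untreated libraries (−0.22 ± 0.0427), and lost its call with only the 6 libraries (adjusted p = 0.0966).

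Of 23 matrix glycoprotein and proteoglycan genes 9 fell and 1 rose, at a median of −0.31, beside 4.25% lower and 1.39% higher over all genes tested. With only the 6 libraries in the fit 6 fell and 0 rose. The rise was in the matrix protein gene Spon1, named after its values were seen (1.14 ± 0.256, called in 9 of the 13 alternatives). Thbs1, a matrix protein that activates latent TGF-beta, had 565, 478 and 615 CPM in the 24 h libraries, against 846, 739.6 and 854 CPM in the untreated libraries (−0.56 ± 0.0728). Sparc, which binds collagen, had 1229, 1239.6 and 1175 CPM in the 24 h libraries, against 1532, 1579 and 1438 CPM in the untreated libraries (−0.32 ± 0.0465). Aspn, a small proteoglycan that overlaps Cenpp on the opposite strand, had 1.00, 0.823 and 1.28 CPM in the 24 h libraries, against 2.68, 2.86 and 2.39 CPM in the untreated libraries (−1.34 ± 0.164). All 3 had separate groups. Cenpp, which also overlaps Ogn, averaged 7.11 CPM at 24 h and 8.48 CPM untreated (−0.25) and did not pass the test. The part of shared reads in the fall of Aspn was not tested. Lum, which encodes lumican, had 8, 8 and 9 counts at 24 h, so its fall (−1.78 ± 0.311) rests on few reads.

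Collagen genes fell in 6 of 22, beside 4.25% lower over all genes tested. One collagen gene rose, Col20a1 (0.50 ± 0.136, called in 9 of the 13 alternatives). Col3a1, a fibrillar collagen of loose connective tissue, had 676, 766 and 749.9 CPM in the 24 h libraries, against 1088, 1064 and 1027 CPM in the untreated libraries (−0.54 ± 0.0625, adjusted p = 3.37e-05 by edgeR). Col6a1, of the microfibrillar type, had 152, 159.6 and 162 CPM in the 24 h libraries, against 212, 198 and 204 CPM in the untreated libraries (−0.38 ± 0.0692), and Col6a2 fell (−0.43 ± 0.0622). The groups of all 3 were separate. Loxl3, a collagen cross-linking oxidase, fell (−0.45 ± 0.0736). Loxl3 overlaps Htra2 on the opposite strand, which was called lower too, though not without untreated replicate 1 or with only the 6 libraries (adjusted p up to 0.0816 by edgeR). Of 13 fibroblast markers tested 6 were lower, 3 with only the 6 libraries, and 0 higher, and the sum over the markers was 3376 to 3642 CPM at 24 h, against 4437 to 4612 CPM in untreated cells, with Thy1 and Pdpn at 0. The marker list itself holds the collagen genes Col1a1, Col1a2, Col3a1 and Col6a2 and the lumican gene Lum. Its sum thus counts again some of the collagen and matrix falls and is no separate measure. Whether a change in cell make-up had a part in those falls was not tested. Haematopoietic markers fell in 1 of 7, the lysosomal gene Cd68 (10.8, 10.8 and 10.6 CPM in the 24 h libraries, against 15.7, 16.2 and 13.8 CPM in the untreated libraries; −0.51 ± 0.104), with Cd8a and Tyrobp at 0, and endothelial markers in 0 of 6.

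**Figure D4:**
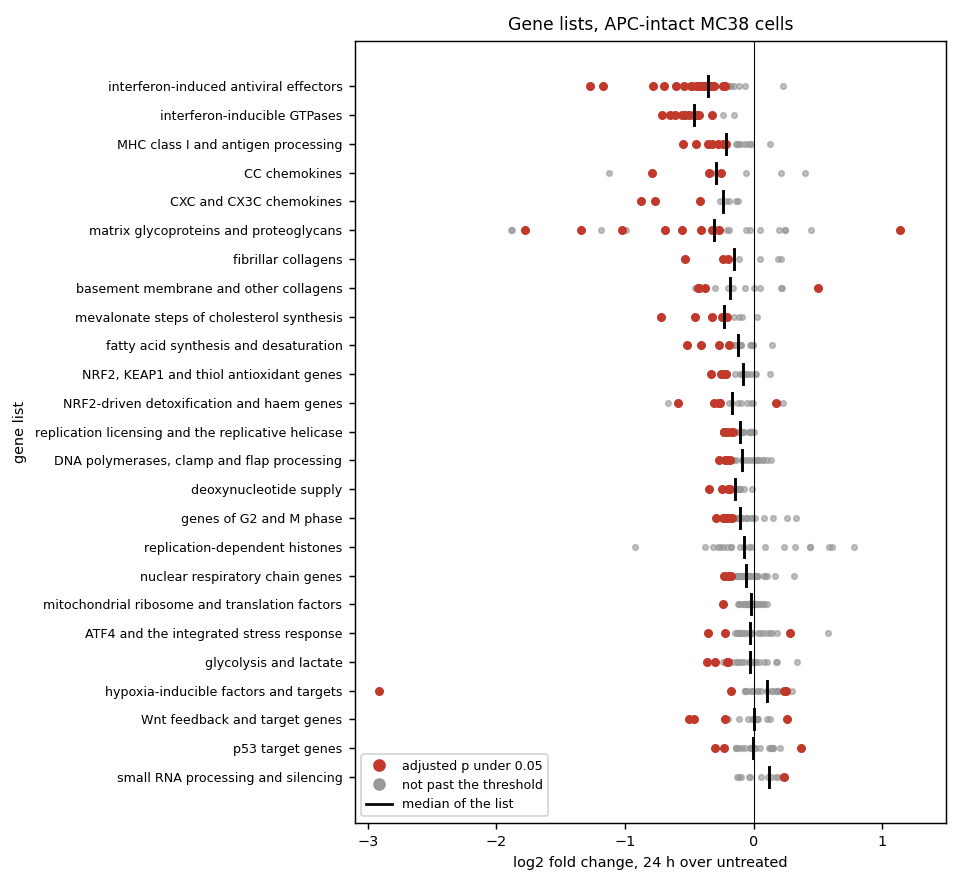
Log2 fold change of 24 h over untreated in APC-intact cells (horizontal axis) for each tested member of 25 gene lists, with called genes in red, the others in grey and the median of each list as a black bar. Interferon effectors and GTPases have the lowest medians and most red points, while replication, G2 and M and respiratory chain genes lie close to 0.

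Genes around tryptophan use other than the kynurenine enzymes had calls both ways, beside 1.39% higher and 4.25% lower over all genes tested. Of 9 tested 1 rose and 2 fell: beside Inmt the monoamine oxidase gene Maoa had −0.22 ± 0.0632 and the tryptophanyl-tRNA synthetase gene Wars 0.21 ± 0.0541. The calls of Maoa and Wars were both lost without untreated replicate 1, without untreated replicate 2, without 24 h replicate 2 and with only the 6 libraries, that of Maoa also without 24 h replicate 1, under the replicate block, with DESeq-style size factors and with thinned counts, and that of Wars without untreated replicate 3 (adjusted p up to 0.205 and 0.0914). Among 7 genes of the aryl hydrocarbon receptor Nqo1 fell and the partner gene Arnt rose (0.24 ± 0.0576), a call lost without untreated replicate 2, without 24 h replicate 1 and with only the 6 libraries (adjusted p up to 0.103 by edgeR). The receptor targets Cyp1a1, Cyp1a2 and Cyp1b1 had 0 or 1 counts in each library. Genes of NAD synthesis and use gave 0 calls among 17 tested.

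Among mitochondrial transcripts the calls were in tRNA genes. Of 13 protein-coding genes of the mitochondrial genome 0 passed the test, with values from −0.39 to 1.30 and a median of 0.32. Both ends of that range had few counts, mt-Co3 (−0.39) at 0.622 to 1.21 CPM and mt-Nd4l (1.30) at 0.0103 to 0.0681 CPM. The counts of mt-Co2, mt-Atp8, mt-Atp6 and mt-Nd3 were low as well, so the range and median rest in part on few reads. Alignments that were not unique took 16.2% to 17.5% of the 24 h libraries and 16.5% to 16.9% of the untreated ones. These were left out, and their part in the low counts was not tested. The cytochrome b gene mt-Cytb had 392.05, 392.2 and 399.8 CPM in the 24 h libraries, against 222, 265 and 296 CPM in the untreated libraries (0.59 ± 0.210, adjusted p = 0.127 by edgeR). Its groups did not overlap, and it passed in 1 alternative, with only the 6 libraries in the fit. Of 22 mitochondrial tRNA genes 3 passed the filter on low counts. Of 3 mitochondrial tRNA genes tested 2 fell, mt-Tc (3.08, 3.00 and 2.92 CPM in the 24 h libraries, against 5.06, 5.67 and 5.04 CPM in the untreated libraries; −0.81 ± 0.146) and mt-Tn (1.22, 1.11 and 1.18 CPM in the 24 h libraries, against 2.25, 2.53 and 2.44 CPM in the untreated libraries; −1.04 ± 0.165), both with separate groups. Nuclear respiratory chain genes fell in 3 of 41 and rose in 0, beside 4.25% of falls over all genes tested. That number of calls was 7 without 24 h replicate 2, 5 without 24 h replicate 3 and 1 without 24 h replicate 1, untreated replicate 1 or untreated replicate 2.

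Other pathways had calls in both directions, apart from the Wnt core components. The shares over all genes tested were 1.39% higher and 4.25% lower. Of 27 genes of the ATF4 stress response 1 rose and 2 fell (1 call in all without 24 h replicate 1, untreated replicate 1 or untreated replicate 2), the rise being Ppp1r15a, which restores translation after stress (187, 197 and 177 CPM in the 24 h libraries, against 156, 158 and 148 CPM in the untreated libraries; 0.28 ± 0.0581). Hypoxia-inducible genes rose in 2 of 23 and fell in 2, with the stress-responsive Ndrg1 at 0.26 ± 0.0464, and the calls numbered 7 without 24 h replicate 3 and 2 without untreated replicate 2. Adm, which encodes adrenomedullin, had 5, 3 and 4 counts at 24 h, against 37, 29 and 36 counts in untreated cells (−2.91 ± 0.503). Of 16 Wnt targets 1 rose and 3 fell, among the falls the secreted Wnt regulators Dkk2 (−0.51 ± 0.0765) and Dkk3 (−0.46 ± 0.0595). The Wnt core components gave 0 calls among 22, and 3 without 24 h replicate 2. Of 30 immediate early genes 1 rose and 4 fell (8 calls without 24 h replicate 3), with Cyr61 at −0.46 ± 0.0720 and Dusp1 at −0.38 ± 0.0573.

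Small RNA processing and silencing genes rose in 1 of 14 and fell in 0, beside 1.39% higher and 4.25% lower over all genes tested. The rises numbered 5 without 24 h replicate 2 and 0 without untreated replicate 2. The gene called was Tnrc6c, a partner of Argonaute proteins (41.3, 39.2 and 41.4 CPM in the 24 h libraries, against 35.01, 33.7 and 34.7 CPM in the untreated libraries; 0.24 ± 0.0525; adjusted p = 0.0632 by edgeR without untreated replicate 2). Dicer1 (0.18) and Ago2 (0.22) did not pass the test. Exon length moved with the direction of calls: the median was 4489 bases in genes that rose, 3069 in genes that fell and 3224 in all genes tested, and 70 of the 208 rises lay in the longest of 5 length classes of equal size. In that class the median deviation from the mean of the 3 untreated libraries was 0.06, −0.06 and 0.10 on the log2 scale in the 24 h libraries. It was 0.02, −0.04 and 0.03 in the untreated libraries, which themselves set that mean. The part of length in the rises was not tested.

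The same time point was measured in APC-deleted cells, which share no library with the comparison above, although their 24 h and untreated libraries carry different run names. There 312 genes were higher (2.08%) and 566 lower (3.77%). Of the 846 genes called in APC-intact cells, 817 had the same sign in APC-deleted cells, 437 were called the same way and 0 the opposite way. The 90 rises called in both were 43.3% of the APC-intact and 28.8% of the APC-deleted rises, and the 347 falls were 54.4% and 61.3%. Interferon-induced genes fell in 32 of 80 APC-deleted genes tested, and rose in 0, at a median of −0.24. Gpr56 changed by 2.15 ± 0.0913 and Inmt by −2.09 ± 0.146 in APC-deleted cells.

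**Figure D5:**
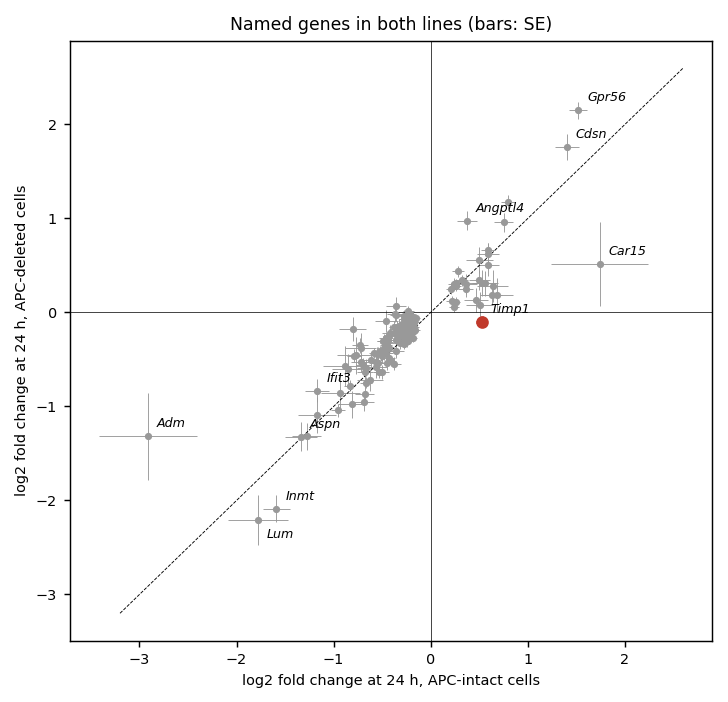
Log2 fold change at 24 h over untreated in APC-intact cells (horizontal axis) and APC-deleted cells (vertical axis) for the 174 named genes that passed the test in APC-intact cells, with SE bars and a dashed line of equal change. Timp1, in red, is the gene whose response passed the test of the difference between lines.

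In a test of the difference between the 2 responses 1 of 15006 genes passed (0.00666%), with 613 at an unadjusted p under 0.05, and DESeq2 called 5, among them Csf3, Gpr56 and Plk2. The gene that passed by edgeR was Timp1 (ENSMUSG00000001131, mm10 chromosome X from 20870166 to 20874735, plus strand). Its level averaged 79.6 ± 3.52 CPM at 24 h and 55.4 ± 1.497 CPM untreated in APC-intact cells, and 37.05 ± 1.38 CPM at 24 h and 39.7 ± 1.45 CPM untreated in APC-deleted cells (SD, n = 3 each). The change in APC-deleted cells was −0.10 ± 0.0571 and did not pass the test (adjusted p = 0.358). The difference of the responses was 0.62 ± 0.0804 (95% interval 0.454 to 0.790, adjusted p = 0.0037 by edgeR). Timp1 overlaps Syn1 on the opposite strand, which averaged 2.98 CPM at 24 h and 2.77 CPM untreated in APC-intact cells. Gpr56 differed by −0.63 ± 0.129 and did not pass after adjustment by edgeR (adjusted p = 0.469), though it did by DESeq2 (adjusted p = 0.0118).

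At 48 h in APC-intact cells 3.81% of genes were higher and 7.54% lower than in the same untreated libraries, so the 2 times share their controls, and the 48 h libraries carry another run name. Gpr56 stood at 1.52 ± 0.0936 at 24 h and 1.75 ± 0.0931 at 48 h, and Timp1 at 0.52 ± 0.0566 and 0.41 ± 0.0566. Ifit1 stood at −0.48 ± 0.0673 at 24 h and −0.43 ± 0.0671 at 48 h, and Irf7 at −0.49 ± 0.0721 and −1.01 ± 0.0729. The CC chemokine Ccl2 stood at −0.25 ± 0.0669 at 24 h, a call lost without untreated replicate 1, untreated replicate 2, 24 h replicate 2 or 24 h replicate 3, with only the 6 libraries and with only the 9 libraries of the run (adjusted p up to 0.165 by edgeR), and at −1.09 ± 0.0677 at 48 h.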

How the data were processed

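The authors deposited whole-number read counts per gene, 1 table per library. STAR, HTSeq and mm10 appear in the submitters' processing notes, without versions, and whether the counting used strand is not given in the sources used here. Entries that name no gene were left out. Run names were read from the names of the deposited count tables. Genes were kept by edgeR's filterByExpr by group (15006 of the 39179 listed), and counts were fitted over all 18 libraries with 1 coefficient per group by edgeR's quasi-likelihood test (edgeR 4.0.16, R 4.3.3) with TMM factors, robust dispersion and Benjamini-Hochberg adjustment at 0.05. SE is the log2 fold change divided by the square root of the F statistic. The biological coefficient of variation was 8.33% over all 18 libraries and 9.29% with only the 6 libraries compared. The fit reported thus set changes against a smaller spread than the fit of those 6 libraries.

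Named genes were the 15 largest rises and the 15 largest falls among called genes whose groups did not overlap and whose higher group averaged 5 CPM or more (clone names left out), up to 5 called members of each of 57 gene lists, and Tdo2. The members and lists were chosen with earlier results of these data known. The 13 alternatives were DESeq2 1.42.0, DESeq-style size factors, no filter on low counts, only the 6 libraries compared, only the 9 libraries of the run, replicate number as a block, counts thinned to the shallowest library, and each of the 6 libraries left out. The fits were tested on simulated data with known changes. Shares of library totals were compared by exact permutation tests. Promoters came from RefSeq (GRCm38.p6). Total counts per library limit the precision for rare transcripts. A few members of the lists are counted but not reported here by name.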

Additional observations from a re-analysis of the deposited data

Results flagged for a closer look

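Timp1, an inhibitor of matrix metalloproteinases, responded differently at 24 h in APC-intact and APC-deleted cells by a test of the difference itself, which gave 0.62 on the log2 scale (APC-intact minus APC-deleted, adjusted p = 0.0037 by edgeR). All 3 treated APC-intact libraries were above their 3 untreated ones. In APC-deleted cells the treated and untreated libraries carry different run names, so run and treatment cannot be told apart on that side of the difference. No value of a single library in the groups of 3 was screened for standing apart, since groups of 3 are too small for that test.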

How the results depend on the processing

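Of 846 calls the count was 364 to 1259 with 1 library left out, 258 with only the 6 libraries compared and 943 with the replicate number as a block. In APC-deleted cells the 878 calls became 428 to 533 with 1 library left out, 2473 with only the groups compared, 1388 by DESeq2 and 709 under the block. The difference between lines gave 1 gene, 5 by DESeq2, 1 to 2 with 1 library left out and 1 under the block. Tdo2 stood between −0.67 and 0.031 with 1 library left out and at −0.35 under the block, and turned to 0.031 without 24 h replicate 1. Of 860 members of any list, 192 were called, 102 to 217 with 1 library left out, 87 with only the 6 libraries and 201 under the block. Of the genes named by rule 174 were called, 99 to 161 with 1 library left out, 82 with only the 6 libraries and 171 under the block. The cause of these shifts was not tested. Replicate numbers gave no clear pairing of the libraries. The deviations of the 3 same-numbered pairs correlated weakly, at −0.01, 0.07 and 0.12. The 24 h replicate 1 correlated best with untreated replicate 2, while 24 h replicates 2 and 3 each correlated best with the untreated library of their own number. Depth limits what can be said of Tdo2 and the kynurenine genes, which had few counts.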

Other observations

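Of the 27 rises and 30 falls of 1 or more on the log2 scale, 2 and 3 had at least 5 CPM in their higher group: Gpr56 and Cdsn rose, and Inmt, Ifit3 and the predicted gene Gm12250, named here after its values were seen, fell. The imprinted noncoding RNA H19, also singled out after its values were seen, had 10, 18 and 6 counts in the 24 h libraries, against 68, 54 and 73 counts in the untreated libraries. Of the 846 genes called, 42 had clone or predicted-gene names, 20 of them higher and 22 lower.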
